A study of Mus musculus with 12 samples.

Results

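The acute-phase genes followed in synovial fibroblasts of healthy and arthritic mice were Saa1, Saa2, Saa3, Lcn2, Hp, Serpina3n, Serpina3m and Slpi. These 8 of the 32285 genes in the feature tables were taken by symbol. Their unique molecular identifiers (UMIs, single captured RNA molecules) were summed over the cells of each annotated class, hashtag and condition in 2 wells of sorted joint cells. The members had been proposed with these sums in view, so their levels and differences are a description and carry no test of their own. Of 3548 annotated cells in the 2 wells, 3325 belonged to the 5 fibroblast classes of the authors' annotation (Mmp3+, Il6+, Pi16+, Lining and Cd200+).

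All mice were R5 x R26tdTomato animals, 8 to 10 weeks old, with the genotype Il5 wt/Cre; R26 tdTom/tdTom, so that healthy and arthritic animals alike carried the Cre in the Il5 locus and the tdTomato reporter. Viable CD45- GR-1- cells were sorted from synovial ankle and wrist joints, tagged with hashtag antibodies and pooled for 3′ single-cell RNA sequencing. The well of experiment 1 held a healthy hashtag, a hashtag with serum transfer arthritis (STA, joint inflammation set off by injecting arthritogenic serum) and a hashtag with STA treated with Il23mc, named STA + Il23 in the cell table and STA + Il23mc here. The well of experiment 2 held a healthy hashtag and hashtags named STA (mild) and STA (severe). The sample protocol gives 4 animals per well against 3 hashtags, so how many animals stand behind 1 hashtag is not known. The replicate is the hashtag, with 2 healthy and 3 STA hashtags, and p-values cover only the spread between hashtags. The STA + Il23mc condition had 1 hashtag and no replicate.

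Acute-phase proteins are secreted in large amounts when cytokines of the IL-6, IL-1 and IL-17 families signal through STAT3, C/EBP factors and NF-kB. The liver is the main source in systemic inflammation, and stromal cells of inflamed tissue also make several of them. Serum amyloid A proteins bind lipids and attract leukocytes, lipocalin-2 withholds iron by binding bacterial siderophores, haptoglobin captures free haemoglobin, and the serpins and Slpi inhibit proteases, Slpi chiefly those of neutrophils.

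On GRCm38, the 3 serum amyloid A genes lie together on chromosome 7. Saa3 spans 46711998 to 46715700 and Saa1 spans 46740497 to 46742980, both on the minus strand, and Saa2 spans 46751790 to 46754313 on the plus strand. Serpina3m (104338486 to 104394257) and Serpina3n (104406729 to 104414329) are neighbours on the plus strand of chromosome 12. Lcn2 (32384633 to 32388252) and Slpi (164354070 to 164389095) lie on the minus strand of chromosome 2, and Hp (109575128 to 109579172) on the minus strand of chromosome 8. A 3′ library reads the end of a transcript, and the last 300 bases of the Saa1 and Saa2 messenger RNAs are 92.4% identical, so the split of reads between these 2 genes is uncertain. The last 300 bases of Serpina3n and Serpina3m are 49.3% identical, while Serpina3m overlaps Serpina3k on the same strand in the annotation, which makes its own count uncertain.

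Upstream sequences are shown for 4 members, because Saa1, Saa3 and Serpina3n were over 4-fold higher in the STA + Il23mc hashtag than in STA while Slpi was not. Each is the 250 bases before the annotated start in RefSeq (GRCm38.p6), 5′ to 3′, with capitals for any match to a C/EBP pattern (TTGCNNAA, read on the other strand as TTNNGCAA), a STAT pattern (TTCNNNGAA, the same on both strands) or an NF-kB pattern (GGG, any 2 bases and TTTCC, or GGAAA, any 2 bases and CCC on the other strand). No printed match overlaps another.
Saa1, chr7:46742981-46743230, minus strand: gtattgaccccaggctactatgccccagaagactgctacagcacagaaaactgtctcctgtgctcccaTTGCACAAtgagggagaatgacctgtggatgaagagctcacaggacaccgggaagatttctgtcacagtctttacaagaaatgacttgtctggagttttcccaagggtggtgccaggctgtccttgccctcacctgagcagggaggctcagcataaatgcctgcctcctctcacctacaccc
Saa3, chr7:46715677-46715926, minus strand: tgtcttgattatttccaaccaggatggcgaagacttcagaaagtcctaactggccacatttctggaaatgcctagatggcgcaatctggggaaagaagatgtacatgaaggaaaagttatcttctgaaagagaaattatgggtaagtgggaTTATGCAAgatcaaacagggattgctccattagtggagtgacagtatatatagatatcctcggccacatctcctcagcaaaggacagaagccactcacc
Serpina3n, chr12:104406458-104406707, plus strand: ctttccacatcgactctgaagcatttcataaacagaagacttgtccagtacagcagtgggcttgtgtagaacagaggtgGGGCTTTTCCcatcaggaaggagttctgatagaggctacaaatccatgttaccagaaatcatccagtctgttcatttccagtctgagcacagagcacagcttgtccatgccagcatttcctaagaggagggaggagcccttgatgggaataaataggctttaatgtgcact
Slpi, chr2:164356508-164356757, minus strand: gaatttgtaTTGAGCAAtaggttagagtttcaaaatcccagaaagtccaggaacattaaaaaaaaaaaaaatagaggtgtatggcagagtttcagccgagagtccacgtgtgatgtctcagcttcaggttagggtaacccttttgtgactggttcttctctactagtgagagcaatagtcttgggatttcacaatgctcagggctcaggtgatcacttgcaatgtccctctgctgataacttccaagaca

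Counting back from -1 at the base before the start, the C/EBP pattern stood at -182 to -175 in Saa1, at -99 to -92 in Saa3 and at -241 to -234 in Slpi. Of the other members in the RefSeq table, Saa2 held it at -183 to -176 and Lcn2 at -216 to -209. GENCODE exons of the same gene covered 197 of the 250 bases in Lcn2, 43 in Saa2 and 24 in Saa3. The Lcn2 and Slpi windows lay inside the GENCODE spans of these genes, so they are upstream of the RefSeq start only. Serpina3n held no C/EBP match and was the 1 member with the NF-kB pattern, at -171 to -162. The STAT pattern was in none of the 6 windows. Over 32817 promoters of the same length, 9.57% held the C/EBP pattern, 7.01% the STAT pattern and 1.41% the NF-kB pattern. A match is a run of letters, not a shown binding site. Whether any match bears on the levels of these genes was not tested.

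Depth and cell mix differed between conditions. The 6 hashtags held 268 to 953 fibroblasts and 3103104 to 17064647 fibroblast UMIs, and the median fibroblast had 7557.5 and 10818.5 UMIs in the healthy hashtags against 14558.5 to 17545 in the others. Mmp3+ cells made up 2.45% and 10.8% of fibroblasts in the healthy hashtags, 40.6% to 69.5% in STA and 66.5% in STA + Il23mc. Levels are given as CPM, the usual scaling of the UMIs of a gene by all UMIs of the fibroblasts, or of the class named, in a hashtag, and are compared within a gene only. In a sum over fibroblasts, more cells of a class and more RNA per cell cannot be told apart. Fibroblast genes were high in all 5 classes, with Col1a1 at 2556 to 15719 CPM and Dcn at 5229 to 17528. Each class was highest in its own naming gene among the 5 (Mmp3, Il6, Pi16 and Cd200) or, for Lining, in Prg4 and Clic5. Some other class markers went against the names. Htra1, listed for Mmp3+, was at 776 CPM in Lining against 316 in Mmp3+ cells. Tnn, listed for Cd200+, was at 213 CPM in Mmp3+ against 160 in Cd200+ cells. Cd55, listed for Pi16+, was at 438 CPM in Lining against 400 in Pi16+ cells.

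The serum amyloid A genes were low in healthy joints, and Saa3 was the member that carried most of the family's UMIs. Saa3 stood at 252 and 75.4 CPM in healthy experiments 1 and 2, at 1069 CPM in STA of experiment 1, at 504 and 204 CPM in mild and severe STA, and at 4830 CPM in STA + Il23mc. The severe hashtag lay below the healthy hashtag of experiment 1, so the groups overlapped, although both STA hashtags of experiment 2 lay above the healthy hashtag of their own well. Saa1 was at 6.13 and 20.6 CPM in healthy, 10.7, 27.7 and 13.0 CPM in STA of experiment 1, mild and severe, and 102 CPM in STA + Il23mc. Saa2 was at 1.75 and 0.645 CPM in healthy, the latter from 2 UMIs, at 2.35, 17.2 and 1.79 CPM in the STA hashtags in the same order, and at 27.9 CPM in STA + Il23mc. Healthy and STA values of Saa1 overlapped, while those of Saa2 did not by a small margin.

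Haptoglobin and lipocalin-2 transcripts were both higher in every STA hashtag than in either healthy one, by very different margins. Hp was at 168 and 81.9 CPM in healthy, at 1106, 759 and 259 CPM in STA of experiment 1, mild and severe, and at 4356 CPM in STA + Il23mc. Lcn2 was at 73.0 and 19.7 CPM in healthy, at 111, 81.4 and 73.1 CPM in the STA hashtags, and at 1479 CPM in STA + Il23mc. The healthy hashtag of experiment 1 and the severe STA hashtag thus differed by less than 1 CPM of Lcn2, and the separation of its groups rests on that.

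The protease inhibitors divided. Slpi was at 13.1 and 41.6 CPM in healthy and at 557, 283 and 255 CPM in STA of experiment 1, mild and severe. In STA + Il23mc it was at 584 CPM, close to the STA hashtag beside it. Serpina3n was at 247 and 162 CPM in healthy, 193, 232 and 366 CPM in the STA hashtags and 1099 CPM in STA + Il23mc. Serpina3m was at 13.7 and 2.58 CPM in healthy, 7.41, 2.38 and 6.45 CPM in STA and 87.5 CPM in STA + Il23mc. Healthy and STA overlapped for both serpins, and in experiment 1 both were lower in STA than in healthy.

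**Figure D1:**
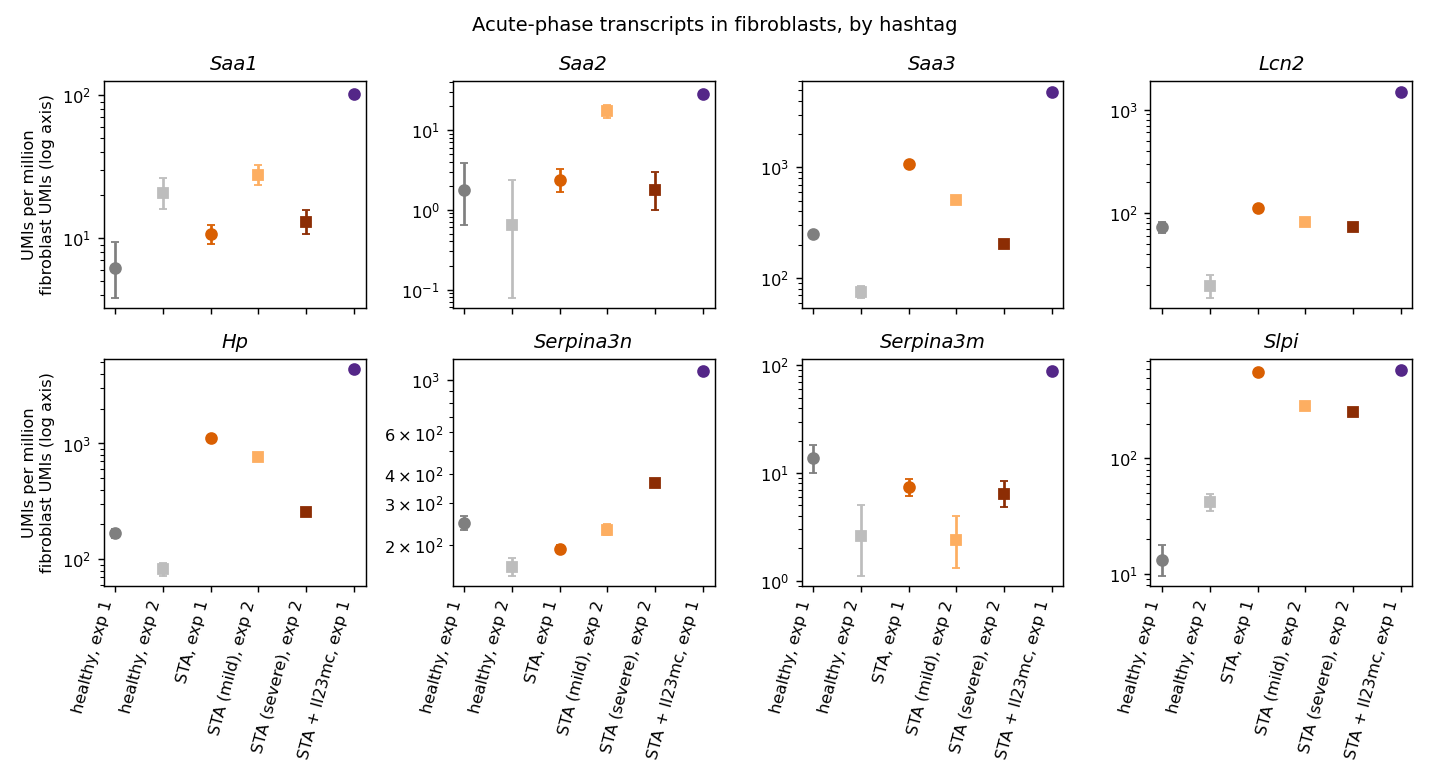
Level of each of the 8 transcripts in CPM of fibroblast UMIs (log axis, one panel per gene, axis limits differ) in each of the 6 hashtags, circles for experiment 1 and squares for experiment 2, with exact 95% Poisson intervals that cover counting error only. STA + Il23mc is highest in every panel, at 4830 CPM for Saa3, and Slpi is the 1 gene where STA of experiment 1 (557 CPM) stands close to it (584 CPM).

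In edgeR's quasi-likelihood fit with experiment as a term, the log2 difference of STA over healthy was 3.73 for Slpi (SE 0.56), 2.69 for Hp (SE 0.45), 2.18 for Saa3 (SE 0.38) and 1.25 for Lcn2 (SE 0.28). It was 2.07 for Saa2 (SE 1.34), 0.34 for Serpina3n (SE 0.31), 0.27 for Saa1 (SE 0.39) and -0.22 for Serpina3m (SE 0.52), each of these 4 within 2 standard errors of 0. The first 4 were called at an adjusted p under 0.05 over 12200 genes, all higher in STA, where 20.3% of all genes were called and 10.5% were called higher. The members' median log2 difference was 1.66 and that of all genes 0.02. For 4 members (Saa2, Lcn2, Hp and Slpi) all STA hashtags lay above both healthy ones, an order that 22.7% of all genes showed, while 43.0% did not overlap in either direction. These counts describe genes picked from the same sums and support nothing further.

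Within each experiment the 4 called members were higher in STA. In experiment 1, STA over healthy was 5.40 on the log2 scale for Slpi, 2.72 for Hp, 2.09 for Saa3 and 0.60 for Lcn2. In experiment 2, mild STA over healthy was 3.21 for Hp, 2.77 for Slpi, 2.74 for Saa3 and 2.05 for Lcn2, and severe STA over healthy was 2.62, 1.66, 1.44 and 1.89 for Slpi, Hp, Saa3 and Lcn2. Slpi therefore had its largest difference in experiment 1 and Lcn2 its smallest. Without the experiment term, Slpi alone stayed called, and the adjusted p of edgeR was 0.084 for Hp, 0.226 for Saa3 and 0.351 for Lcn2. Leaving out the healthy or the STA hashtag of experiment 1 took the calls of Saa3 and Hp away at adjusted p-values of 0.0747 to 0.0767 with log2 differences of 2.23 to 2.64, and leaving out the healthy hashtag of experiment 2 took that of Saa3 away at 0.0523. In each of these fits 1 experiment lacks a healthy or STA partner, so the contrast rests on the other experiment alone. For Lcn2 the last fit gave 0.60, the difference of 1 STA and 1 healthy hashtag with the spread taken from the other STA hashtags, against 1.25 over all hashtags.

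Very few cells held the Saa3 of healthy joints. In the healthy hashtag of experiment 1, 3 cells held 754 of 861 Saa3 UMIs, namely 422 UMIs in a Lining cell, 182 in an Il6+ cell and 150 in a Pi16+ cell. In the healthy hashtag of experiment 2, 5 of 268 fibroblasts had any Saa3 UMI, and an Il6+ cell with 150 and an Mmp3+ cell with 81 held nearly all of the 234. The Lining cell carried 2135 UMIs of Prg4, the lubricin gene that marks the lining, and no other member beyond 2 UMIs of Hp. For 1 of these cells in each healthy hashtag the authors' hashtag margin, a measure of how clearly a cell belongs to its hashtag, was 0.042 and 0.041, against medians of 0.856 and 0.533 over the fibroblasts of those hashtags. Whether such cells came from another hashtag was not tested.

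Hp and Slpi were also held by few cells in healthy joints. A single Mmp3+ cell held 335 of 574 Hp UMIs in the healthy hashtag of experiment 1, and it also held 96 UMIs of Lcn2, 17 of Saa3 and 13 of Slpi. A single Lining cell held 85 of 129 Slpi UMIs in the healthy hashtag of experiment 2. The healthy cells with the next most Hp UMIs in experiment 1 (47) and the most in experiment 2 (83) carried 46 and 27 UMIs of Adipoq, the adiponectin gene of fat cells. Serpina3n was spread far wider: the top 3 cells held 10.4% and 15.7% of its UMIs in healthy, and 220 of 408 and 134 of 268 fibroblasts had at least 1.

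Leaving out the 3 cells with the most UMIs of a member from each hashtag, a setting chosen after seeing the data, removes cells by the count it measures and is given only to show how much they held. Healthy Saa3 fell by this step from 252 to 31.3 CPM and from 75.4 to 0.645 CPM, and severe STA went from 204 to 114 CPM. Saa1 and Saa2 of mild STA were held mostly by single Mmp3+ cells as well, with 143 of 163 and 88 of 101 UMIs in 1 cell each, and without the top 3 cells they were at 2.72 and 1.36 CPM. In STA of experiment 1, mild and severe the top 3 cells held 23.9%, 51.5% and 44.4% of Saa3. In STA + Il23mc the top 3 of 953 cells held 8.31% of Saa3 and 6.21% of Lcn2, but 51.6% of Saa1 and 63.2% of Saa2.

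**Figure D2:**
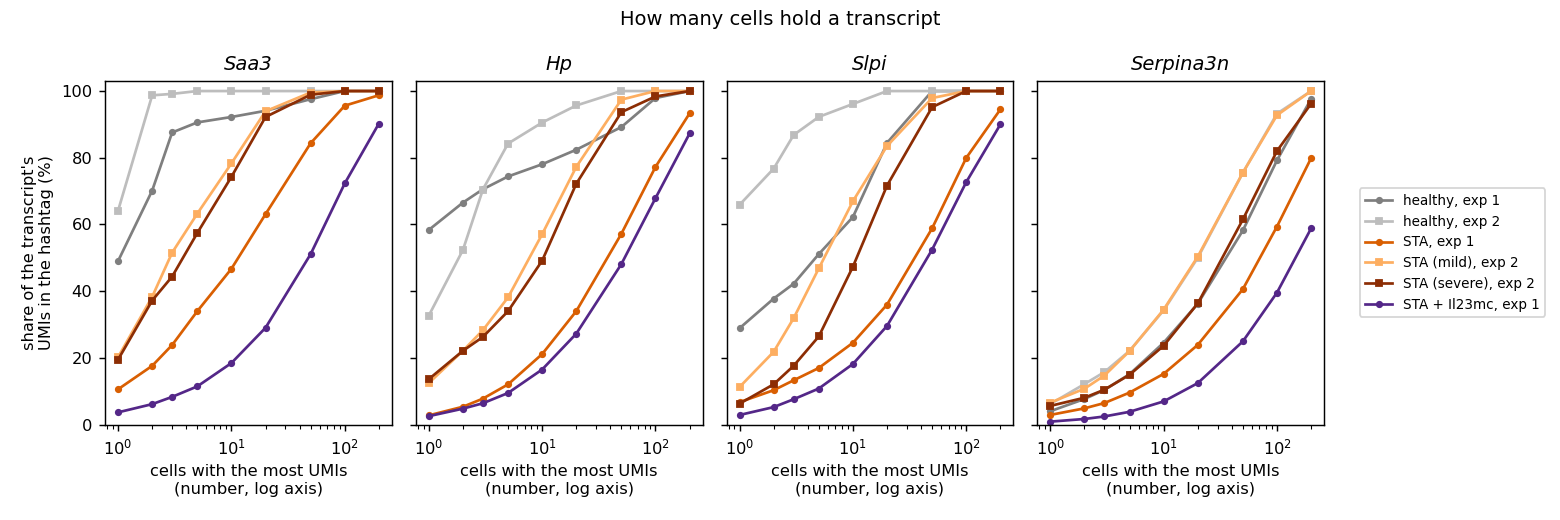
Share of a transcript's UMIs in a hashtag (percent) held by the cells with the most of its UMIs, from the top 1 to the top 200 cells (log axis), for 4 genes and 6 hashtags. In healthy joints 3 cells hold 87.6% and 99.1% of Saa3. They hold 23.9%, 51.5% and 44.4% in STA of experiment 1, mild and severe, and 8.31% in STA + Il23mc. Hashtags differ in cell number. The top 5% of cells hold 94.2% and 100% of Saa3 in healthy, 83.6%, 87.4% and 94.9% in STA and 49.8% in STA + Il23mc. Serpina3n is spread over many cells in every hashtag.

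Across fibroblast classes the members fell into different places. Clusters share the genes they are compared on, so class levels are a description. In the 3 STA hashtags and STA + Il23mc, Mmp3+ cells held 81.5% to 95.9% of Saa3 UMIs, 86.7% to 95.7% of Hp UMIs and 85.3% to 96.6% of Slpi UMIs. They held 41.7% to 57.8% of Serpina3n UMIs, with 32.6% to 46.0% in Il6+ cells. Read against the size of each class, Saa3 in STA of experiment 1 stood at 1278 CPM in Mmp3+, 475 in Il6+, 76.4 in Lining and 31.2 in Pi16+ cells. The class named Osteoblasts, outside the fibroblasts and high in both Ibsp (7736 CPM) and the cartilage gene Col2a1 (8452 CPM), had 18.8 CPM there.

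Serpina3n had another order. Among the 5 fibroblast classes its level was highest in Il6+ cells in all 6 hashtags, at 530 and 263 CPM in healthy, 820, 612 and 880 CPM in STA of experiment 1, mild and severe, and 2720 CPM in STA + Il23mc. Within Il6+ cells, then, every STA hashtag lay above both healthy ones, which was not so in the sum over fibroblasts. Pi16+ cells were at 240 and 132 CPM in healthy and 458, 163 and 290 CPM in STA, with mild STA inside the healthy range. Mmp3+ cells were at 89.1 and 49.2 CPM in healthy and at 124, 197 and 259 CPM in STA. Cells with fewer than 5000 UMIs were left out of thinned shares. Among Il6+ cells these were 37 of 113 and 7 of 92 in healthy. They were 37 of 137, 5 of 63 and 23 of 139 in STA, and 28 of 227 in STA + Il23mc. After the others were reduced to 5000 UMIs, Il6+ cells with a Serpina3n UMI made up 70.4% and 49.5% in healthy, 87.5%, 57.4% and 73.6% in STA and 98.0% in STA + Il23mc. Before thinning, over all Il6+ cells, these shares were 69.9% and 59.8%, 87.6%, 65.1% and 79.9%, and 97.4%.

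In STA and STA + Il23mc, most Slpi UMIs were in Mmp3+ and Lining cells. In Il6+ cells it was at most 9.51 CPM in healthy and 5.25 CPM in STA and in Pi16+ cells from 1.54 to 37.8 CPM, with no STA hashtag of experiment 2 above its healthy partner in either class. In Mmp3+ cells it was at 89.1 and 76.1 CPM in healthy (10 and 29 cells), at 601, 378 and 369 CPM in STA and at 716 CPM in STA + Il23mc. Lining cells of experiment 1 were similar in number, 49 in healthy and 54 in STA, and their Slpi was at 8.63 CPM (exact Poisson interval 3.17 to 18.8) against 1411 CPM (1332 to 1493). Lining cells of experiment 2 gave 748 CPM in healthy, all from 1 of 6 cells, and 393 and 477 CPM in mild and severe STA. Cd200+ cells were few, 10 in mild STA and 16 in severe STA. Their Slpi was at 55.0, 23.5 and 440 CPM in STA of experiment 1, mild and severe, and 365 CPM in STA + Il23mc. In severe STA that was above the level of Mmp3+ cells.

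Hp, like Slpi, was low in Pi16+ cells and higher in Mmp3+ and Lining cells of STA. Its Lining level in experiment 1 was 53.2 CPM in healthy, 1167 CPM in STA and 6013 CPM in STA + Il23mc, the last from 17 cells of which 1 held 1019 of 1759 UMIs. In experiment 2 it was 17.6, 472 and 140 CPM in healthy, mild and severe. Mmp3+ cells of the healthy hashtag in experiment 1 stood at 2004 CPM of Hp, above the 1271 CPM of STA, with 335 of its 360 UMIs in 1 of 10 cells. In experiment 2 the Mmp3+ level went from 409 CPM in healthy to 1064 CPM in mild STA and 380 CPM in severe STA. Thinned shares of Mmp3+ cells with an Hp UMI were 22.9% and 10.1% in healthy, 50.7%, 43.0% and 28.8% in STA and 76.7% in STA + Il23mc, and before thinning they were 30.0% and 20.7%, 71.0%, 57.6% and 47.1%, and 86.9%. Thinned shares in osteoblasts were 2.90% to 35.7%, highest in STA + Il23mc. Whether these UMIs were free RNA or the osteoblasts' own was not tested.

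Saa3 was found in a low share of cells of every class in the healthy hashtag of experiment 1. Thinned to 5000 UMIs, 10.9% to 15.6% of Mmp3+, Il6+, Pi16+ and Lining cells and 12.3% of osteoblasts had a Saa3 UMI there. Chondrocytes were inside that range and Cd200+ cells below it at 6.37%. Whether these shares are background from free RNA was not tested. In STA of experiment 1 the share was 28.5% in Mmp3+ cells and 24.5% in Il6+ cells against 6.07% in osteoblasts, and in STA + Il23mc it was 63.0% and 55.0% against 10.4%. Unthinned, the shares were 49.6% and 34.3% in STA and 75.1% and 59.9% in STA + Il23mc. Median depth in STA + Il23mc was 20282 UMIs in Mmp3+ cells, 10541 in Il6+ cells and 14704.5 in osteoblasts.

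With equal weight for the Il6+ and Pi16+ classes, the 2 with at least 20 cells in every hashtag, the log2 difference of STA over healthy was 0.47 for Saa3 and 0.53 for Hp, against 2.18 and 2.69 over all fibroblasts, and 1.08 for Lcn2, 1.04 for Serpina3n and -0.21 for Slpi, with no test. This mean leaves out the Mmp3+ and Lining cells, which held most UMIs of Saa3, Hp and Slpi in STA.

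**Figure D3:**
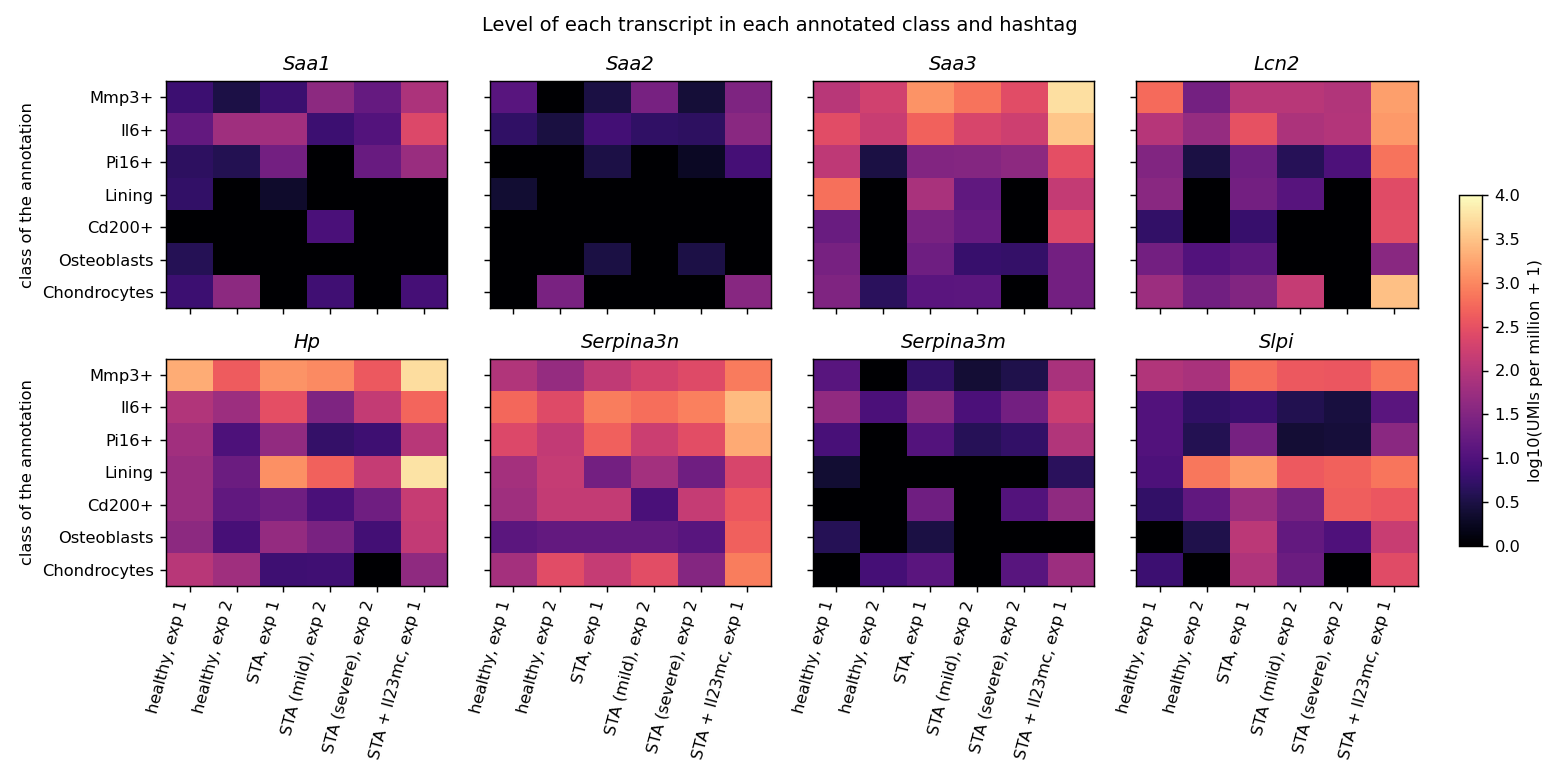
Level of each transcript as log10(CPM + 1) in each of the 7 annotated classes (rows) and 6 hashtags (columns). Saa3 is brightest in Mmp3+ cells of STA + Il23mc (5476 CPM) and Hp in Lining and Mmp3+ cells of that hashtag (6013 and 5293 CPM), Serpina3n is brightest among the 5 fibroblast classes in Il6+ cells of every hashtag, and Slpi is dark in Il6+ and Pi16+ cells throughout.

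STA with added Il23mc was set beside STA of the same well, with 1 hashtag each and therefore no test. In the sum over fibroblasts, Lcn2 was 13.4-fold higher in STA + Il23mc, on 25247 against 1838 UMIs. Saa2 was 11.9-fold, Serpina3m 11.8-fold, Saa1 9.53-fold, Serpina3n 5.70-fold, Saa3 4.52-fold and Hp 3.94-fold higher. Slpi was 1.05-fold higher, a log2 ratio of 0.07 with a counting interval of 0.03 to 0.11. At least 2-fold higher were 7 of 8 members, against 1.87% of the 10812 genes with at least 50 UMIs in either hashtag, and 6 were at least 4-fold higher, against 0.49% of genes. No member was 2-fold lower, as 2.08% of genes were. Since the members were chosen with these sums in view, nothing is read from those counts.

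The median gene had a log2 ratio of -0.24 between the same hashtags, and with TMM-adjusted library sizes all 8 ratios rose by the same amount, Slpi to 0.29. Relative to the median gene, Slpi was therefore slightly higher and the other 7 members still further above it. Without the top 3 cells of each hashtag the log2 ratio of Lcn2 was 4.32, against 3.74 with them. Saa2 went to 5.87-fold by the same step.

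The ratios were found within classes and differed between them. In Mmp3+ cells, 655 in STA and 634 in STA + Il23mc, 7 of 8 members were at least 2-fold higher, against 1.95% of 10271 genes. There Serpina3m was 17.5-fold, Lcn2 15.2-fold and Saa2 13.4-fold higher, Serpina3n 6.35-fold, Saa3 4.29-fold and Hp 4.17-fold, and Slpi 1.19-fold higher with a log2 counting interval of 0.21 to 0.30. In Il6+ cells 7 of 8 also passed 2-fold, against 2.27% of 5021 genes, but the 1 that did not was Hp, at 1.73-fold. Slpi passed it on only 29 against 7 UMIs with a log2 interval of -0.10 to 2.56. Both gene shares cover only genes with at least 50 UMIs in either hashtag of the class. Slpi in Il6+ cells was not among them, so the member count there and the share are on unlike terms. Saa3 was 7.09-fold higher in Il6+ cells. Lcn2 was 36.1-fold higher in Pi16+ cells, on 398 against 17 UMIs, and 12.8-fold higher in Lining cells. In Lining cells, 17 against 54, Slpi was lower, at 0.499 times its level in STA with a log2 interval of -1.22 to -0.79, while Hp was 5.15-fold higher.

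**Figure D4:**
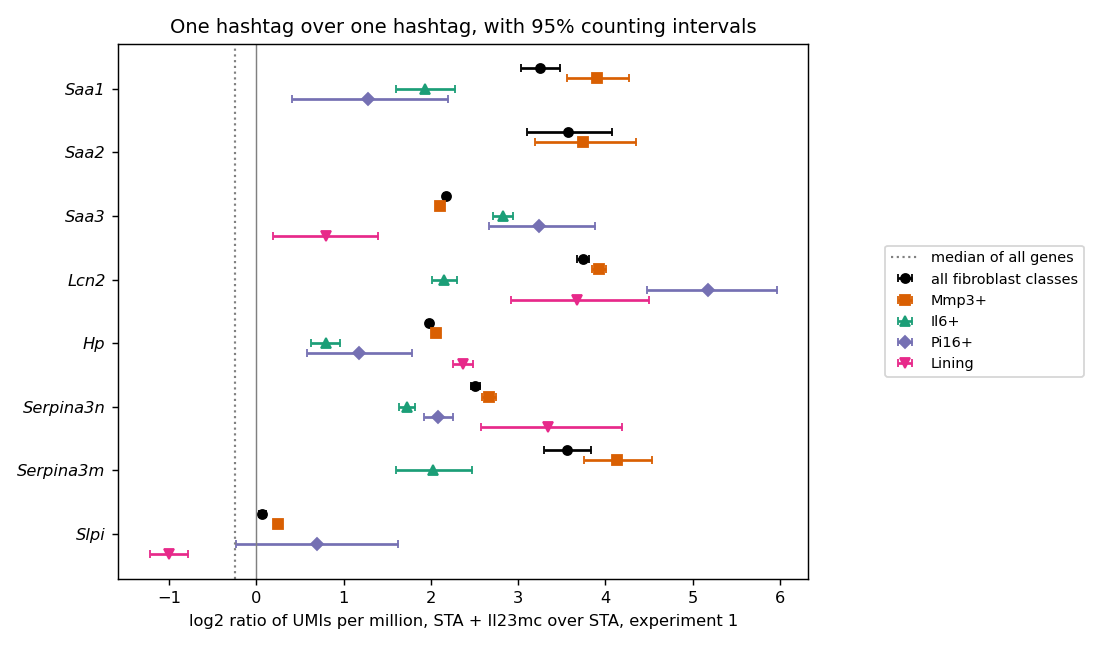
Log2 ratio of STA + Il23mc over STA in experiment 1 for each transcript, in all fibroblasts and in 4 classes, where both hashtags had at least 10 UMIs. Bars are 95% counting intervals for 1 hashtag against 1, the dotted line is the median gene (-0.24), and Slpi is the 1 member near 0 in all fibroblasts (0.07) and lies below it in Lining cells.

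The mild and severe STA hashtags of experiment 2 were also 1 against 1. Severe over mild, the log2 ratio was -3.26 for Saa2, -1.55 for Hp, -1.30 for Saa3 and -1.09 for Saa1, and 1.44 for Serpina3m and 0.66 for Serpina3n. Lcn2 and Slpi differed little, at -0.16 (interval -0.33 to 0.02) and -0.15 (interval -0.25 to -0.06). At least 2-fold lower were 4 members, and 1 was at least 2-fold higher, where each direction held 0.901% of 9549 genes. In mild STA 1 Mmp3+ cell held 143 UMIs of Saa1 and 1 held 88 of Saa2, and without the top 3 cells they were 0.78 and -0.51. Saa3 and Hp had ratios of -1.11 and -1.51 by that step. With equal weight for Il6+ and Pi16+ cells, which leaves out the Mmp3+ cells, Hp turned to 2.12 and no member was 2-fold lower. The hashtag named severe thus had less Saa3 and Hp than the hashtag named mild, and Mmp3+ cells made up 40.6% of its fibroblasts against 49.1%. Within Mmp3+ cells the log2 ratio was -1.30 for Saa3 and -1.49 for Hp. Within Il6+ cells it was -0.37 for Saa3 and 2.28 for Hp.

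Single Mmp3+ cells showed which members were found together. Spearman correlations of a cell's CPM over the cells of 1 hashtag are given as a description, since these cells share a library and differ in depth. In STA + Il23mc (634 cells) rho was 0.58 for Serpina3n with Serpina3m, 0.50 for Saa3 with Lcn2, 0.39 for Saa3 with Hp and 0.30 for Hp with Slpi. In STA of experiment 1 (655 cells) it was 0.25, 0.29, 0.33 and 0.45 for the same pairs. Serpina3n and Slpi ran against each other, with rho of -0.18 in STA + Il23mc and -0.06, -0.20 and -0.26 in STA of experiment 1, mild and severe. In Il6+ cells of STA + Il23mc, Saa3 with Lcn2 was at 0.34 and Saa3 with Slpi at 0.06.

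Over the 42 sums by class and hashtag, the genes most like each member in log2(CPM + 10) were named among 5382 genes by Pearson's r. These sums include the classes named Osteoblasts and Chondrocytes, so the correlations are not of fibroblasts alone. Closest to Serpina3n were Steap4 (r = 0.82), a metalloreductase, and C4b (0.82), the complement C4 gene, and closest to Serpina3m was Iigp1 (0.88), an interferon-inducible GTPase. Saa1 and Saa3 were both closest to Cxcl13 (0.75 and 0.73), the B-cell chemokine. Lcn2 came after Cxcl13 for Saa3 (0.72). For Lcn2, Serpina3m (0.744) came just before Iigp1 (0.737). The members were kept in the search at any mean CPM, while other genes had to pass a floor. Hp was closest to Lpgat1 (0.79) and Ccn5 (0.69), and Slpi to Nt5dc2 (0.82), Sdc1 (0.76), the syndecan-1 gene, and Pold4 (0.75). No member was among the 3 genes closest to Slpi. These sums share libraries and depth, and r is a description.

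Among the cytokines known to induce acute-phase genes, 4 of 11 passed the filter on low counts and 2 rose in STA by edgeR's quasi-likelihood test with Benjamini-Hochberg adjustment over all genes. Csf3, the granulocyte colony-stimulating factor gene, rose by a log2 difference of 1.89 (adjusted p = 0.0260), from 5.26 and 0.967 CPM in healthy to 13.0, 10.7 and 6.69 CPM in STA, and was at 83.6 CPM in STA + Il23mc. Lif, an IL-6 family cytokine, also rose (adjusted p = 0.00793 by edgeR), from 36.5 and 48.3 CPM to 62.7, 120 and 95.5 CPM. The median of the 4 was 0.65. Among all genes tested 10.5% rose and 9.88% fell. Of 12 cytokine receptors tested none rose and 2 fell, near that share, Il6ra (the IL-6 receptor) at -1.47 and Il17rd at -1.46, with a median of -0.10.

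Several signalling genes downstream of these receptors were lower in STA in the sum over fibroblasts. Of 23 tested, 1 rose and 9 fell, against 10.5% and 9.88% of all genes, with a median log2 difference of -0.44. Cebpd, a C/EBP factor of the acute-phase response, fell from 916 and 1514 CPM to 348, 860 and 1084 CPM (log2 difference -0.95). Tnfaip3 and Zc3h12a, which restrain NF-kB signalling and cytokine messages, fell at -1.22 and -0.99, and Tsc22d3, a glucocorticoid-induced gene, at -1.57. All 4 were higher in the healthy hashtag than in the STA hashtags of the same experiment. The mix of classes differed too, with Pi16+ cells at 50.2% and 47.0% of fibroblasts in healthy and 8.48%, 20.5% and 22.3% in STA. Levels of the 4 genes within a class were not compared between conditions.

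Other positive acute-phase genes did not move as 1 group. Of 35 listed, 15 were tested, 3 rose and 4 fell, against 10.5% and 9.88% of all genes, with a median of 0.13. Timp1, the metalloproteinase inhibitor, rose from 566 and 354 CPM to 2326, 1479 and 1300 CPM (log2 difference 2.02). C4b fell from 514 and 374 CPM to 176, 180 and 252 CPM (-1.11), and Mt1, a metallothionein, fell from 8099 and 11138 CPM to 3281, 6392 and 6180 CPM. Of the negative acute-phase genes, 3 of 9 were tested and Trf, the transferrin gene, fell at -1.28. Among 6 tested relatives of the members Wfdc1 fell at -0.74, and among 11 tested receptors and targets Tlr4 fell at -0.75 and Ftl1, the ferritin light chain gene, at -0.34. In STA + Il23mc over STA, with no test, Mt1 had a log2 ratio of 1.72, and Timp1 0.15, while C4b went from 176 to 357 CPM.

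Markers of other cells differed in their summed levels. Neutrophils, a known source of Lcn2, Slpi and Hp, could be read from 12 markers, whose summed level was 14.9 and 8.70 CPM in healthy, 12.5, 15.5 and 31.0 CPM in STA of experiment 1, mild and severe, and 18.8 CPM in STA + Il23mc. Ly6g was at 0 in all 6 hashtags and Csf3r in 5 of them. Of the 3 neutrophil markers tested, none passed the threshold, with S100a8 at 0.45 (adjusted p = 0.651 by edgeR) and S100a9 at 0.21 (0.868). Hepatocyte markers reached at most 0.478 CPM in sum, with Alb at 0 in 5 hashtags. In cells with no UMI of Ptprc, S100a8 or S100a9, the log2 difference of STA over healthy was 3.75 for Slpi, 2.62 for Hp, 2.24 for Saa3 and 1.19 for Lcn2, all called. The 6 adipocyte markers summed to 41.8 and 9.35 CPM in healthy and 1.15 to 2.64 CPM elsewhere, and Adipoq fell in STA (log2 difference -5.10), and its part in the Hp result was not tested. Macrophage markers summed to 16.5 to 46.7 CPM, highest in STA + Il23mc, and their part in the results was not tested. Epithelial markers summed to 33.5 to 173 CPM, highest in healthy of experiment 1. Mural cell markers summed to 96.7 to 242 CPM, highest in STA of experiment 1. The part of either list in the results was not tested. Of the genes tested on the other lists, Acta2 of mural cells rose (1.61), Acta1, Tnnt3 and Ckm of skeletal muscle fell (-0.84, -0.85 and -1.38), and none of the macrophage (3), leukocyte (2), lymphocyte (4), endothelial (1), epithelial (5), red cell (3) or Schwann cell (3) genes passed the threshold.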

How the data were processed

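Sorted joint cells were profiled by 3′ single-cell RNA sequencing in 2 fibroblast wells and, outside the comparisons, 3 wells of innate lymphoid cells. The authors deposited raw UMI counts per gene and barcode. Per the file headers Cell Ranger 6.1.2 wrote them, while the submitters' processing notes name version 6.0.6 and the build mm10. They also deposited a filtered cell table with class, hashtag and condition. That deposited table also holds a mitochondrial fraction per cell. How the authors filtered cells, called doublets or chose classes is not given in the sources used here. No further doublet removal was done.

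Of 2431 and 1120 listed cells, 2431 and 1117 were found in the matrices, of which 201 and 118 had the same UMI total as in the authors' table. Matrix totals were higher by a median of 4 and 3 UMIs per cell, while all cells of the lymphoid wells had equal totals. The fibroblast wells shared 4 barcodes, 0 among kept cells. Counts of the fibroblast classes were summed per hashtag and tested with edgeR 4.0.16 (TMM, filterByExpr, quasi-likelihood, experiment and condition; 12200 genes; threshold 0.05 after Benjamini-Hochberg adjustment), after the script was checked on simulated data. Same-well hashtags were thus compared within their well. Single hashtags were compared by CPM with exact Poisson or binomial intervals at 95%, which cover counting error only. DESeq2 1.42.0, library size alone, no filter, no experiment term, other cell sets, equal class weight and leaving out each hashtag were the alternatives. Shares of cells were thinned to 5000 UMIs by hypergeometric expectation, leaving out shallower cells.

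The members and all lists were chosen with earlier results of these data known. All members are named. Some list genes that the rule below would name are not reported here. Of each list up to 4 genes past the threshold with the largest fold change are named, or up to 2 with the highest mean CPM where none passed. For each member the closest of 3 genes by Pearson correlation over class sums of at least 50000 UMIs are named. They were sought among genes of at least 20 CPM and the members themselves at any CPM. Lists of other cells covered neutrophils, macrophages, leukocytes, lymphocytes, endothelium, mural cells, adipocytes, epithelium, hepatocytes, red cells, muscle and Schwann cells. Promoters came from a RefSeq table (GRCm38.p6, 6 of 8 members), gene positions and transcripts from GENCODE on GRCm38, aligned with Biopython 1.88.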

Additional observations from a re-analysis of the deposited data

Results flagged for a closer look

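Serpina3n went opposite ways in the 2 experiments when STA was set beside healthy. The log2 difference was -0.36 in experiment 1, where healthy was at 247 CPM and STA at 193 CPM, and 0.52 for mild and 1.18 for severe STA in experiment 2, where healthy was at 162 CPM. With 1 or 2 STA hashtags per experiment this difference was not tested. Within Il6+, Pi16+ and Mmp3+ cells, each taken alone, every STA hashtag was above the healthy hashtag of its experiment. In the few Lining cells STA was below healthy in both experiments. Mmp3+ cells, where the level was lower than in Il6+ cells, made up 2.45% of healthy and 69.5% of STA fibroblasts in experiment 1. The part of this cell mix in the opposite directions was not tested.

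The wells of sorted innate lymphoid cells, which no comparison used, held a few UMIs of the same genes. The well of STA + Il23mc had 17 UMIs of Hp in 11 of 1553 cells, 13 of Lcn2, 11 of Saa3, 5 of Serpina3n and 5 of Slpi, where the healthy well had 0 of each among 1635 cells, with an exact Poisson upper bound of 0.447 CPM. For Hp the 17 UMIs are 2.16 CPM (exact Poisson interval 1.26 to 3.45), against 4356 CPM in fibroblasts of the same condition. The well that pooled healthy and STA cells in experiment 2 had 3 UMIs of Lcn2, 2 of Saa3 and 2 of Slpi, and 0 of Hp and Serpina3n. These wells were separate from the fibroblast wells, and the source of the UMIs was not tested.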

How the results depend on the processing

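The STA against healthy fit called 2481 genes with the experiment term and 583 with no replicate block, and 1 member (Slpi) in place of 4. The numbers pair hashtags because those of 1 well share it. Leaving out 1 hashtag gave 841 (healthy, experiment 1) to 2113 genes and 2 to 4 members, with 865 genes without STA of experiment 1. The sign of members not called turned in places. Saa1 was -0.74 without immune-marked cells (those with a UMI of Ptprc, S100a8 or S100a9), -0.43 at equal class weight, and -0.046 to 0.80 over leaving out 1 hashtag. Serpina3m became 0.14 without immune-marked cells, 0.18 without the top 3 cells, 0.59 at equal class weight, and -0.89 to 0.82 over leaving out 1 hashtag. Serpina3n ran from -0.36, without the healthy hashtag of experiment 2, to 0.89. The called Slpi was -0.21 at equal class weight, which leaves out Mmp3+ and Lining cells. Severe over mild, members 2-fold higher and lower numbered 1 and 4, but 2 and 2 without immune-marked cells, 3 and 0 at equal class weight, and 1 and 2 without the top 3 cells. There Saa1 turned to 1.17, 2.25 and 0.78, Lcn2 to 0.29 and 0.26, Slpi to 0.14 and 0.12, and at equal weight Saa2 to 0.16 and Hp to 2.12. In STA + Il23mc over STA no ratio changed sign in 40 alternative values, but 21 moved beyond their counting interval, and equal class weight gave 3.47-fold for Saa1, 6.21-fold for Lcn2, 1.80-fold for Hp, 7.23-fold for Saa3 and 1.72-fold for Slpi, with 6 members at least 2-fold higher in place of 7. Unless stated, the cause was not tested. With no filter, Saa2 and Serpina3n were also called. Their log2 differences there were 2.12 and 0.40, near the 2.07 and 0.34 of the main fit. Their standard errors fell from 1.34 and 0.31 to 0.46 and 0.14, so the calls come with the smaller spread estimate of that fit. The 3-cell setting was chosen after seeing the data. Counting depth limits Saa2 and Serpina3m most.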

Other observations

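The classes that the authors named Osteoblasts and Chondrocytes, 223 cells in all, also held members. The class named Chondrocytes had the tendon genes Fmod at 3837 CPM and Tnmd at 830 CPM, the cartilage gene Chad at 2848 CPM, and less Col2a1 (558 CPM) than the class named Osteoblasts (8452 CPM), so its markers go partly against its name. In it, Lcn2 was at 57.1 and 21.0 CPM in the healthy hashtags, 29.5, 139 and 0 CPM in STA of experiment 1, mild and severe, and 2964 CPM in STA + Il23mc. That is 421 against 5 UMIs in experiment 1, over 15 and 13 cells, with 186 of the 421 in 1 cell. Serpina3n in the same cells was at 831 CPM in STA + Il23mc against 142 CPM in STA.

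Osteoblasts had little Saa3 in any hashtag, between 0 and 24.1 CPM. Slpi there was at 0 and 2.41 CPM in healthy, 111, 14.8 and 8.91 CPM in STA and 150 CPM in STA + Il23mc. Their Serpina3n was 11.1 to 14.8 CPM in 5 hashtags and 468 CPM in STA + Il23mc, where 1 of 16 cells held 122 of 131 UMIs.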
